A study of Mus musculus with 3 samples.

Results

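The complement genes described here are 9 of the 32594 genes listed for each library of mouse prostate cells, namely C1ra, C1rb, C1s1, C1s2, C2, C3, C4b, C7 and Cfb. They were picked by gene symbol as complement components transcribed in the prostate itself, with their levels in these libraries already known, so their levels and their genotype differences are given as a description, without a test. Prostate cells from 1 Srd5a2 knockout (Srd5a2-/-) library were compared with cells from 2 Srd5a2 heterozygote (Srd5a2+/-) libraries, called heterozygote 1 and heterozygote 2. All 3 libraries came from whole prostate of C57BL6 mice aged 12 to 15 weeks, without treatment, and wild-type tissue is not part of the comparison. Digestion lasted 2 h at 37 °C, with collagenase, rock inhibitor and dihydrotestosterone in the buffer, so in every group transcripts were read after exposure to that androgen. Srd5a2 encodes steroid 5α-reductase type 2, which converts testosterone to dihydrotestosterone. Animals per library, and the part of Srd5a2 deleted, were not given in the sources used here. The labels do not say that the heterozygote libraries came from separate animals, so the spread between them may be technical.

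Complement is a cascade of secreted proteases and binding proteins that marks surfaces for clearance and can end in a pore through a membrane. In the classical pathway C1q binds a target and activates the proteases C1r and then C1s, which cut C4 and C2 to build a C3 convertase. The alternative pathway builds a convertase from C3 and factor B, and the terminal pathway assembles C5b, C6, C7, C8 and C9 into the membrane attack complex. Most circulating complement is made by the liver, while fibroblasts, macrophages and epithelia make some components in place. The mouse has a pair of genes for C1r (C1ra and C1rb) and a pair for C1s (C1s1 and C1s2).

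The C1r and C1s genes lie in alternation on chromosome 6 of mm10 in GENCODE vM21: C1ra at 124512405 to 124523443 on the plus strand, C1s1 at 124530345 to 124542359 on the minus strand, C1rb at 124570294 to 124581171 on the plus strand and C1s2 at 124624625 to 124636085 on the minus strand. C4b (34728380 to 34743882), Cfb (34856374 to 34862518), C2 (34862604 to 34898265) and C3 (57203970 to 57228136) all lie on the minus strand of chromosome 17, the chromosome that also carries Srd5a2 (74016955 to 74047916). C7 lies on the minus strand of chromosome 15 (4988762 to 5063740). RefSeq promoter windows, from 250 bases before to 50 bases after the RefSeq start, were matched for 6 of the 9 genes. For C1ra and C1rb that start lies downstream of the GENCODE start given above. Most of each of these windows therefore lies inside the gene as GENCODE places it. The windows of the C1r and C1s genes are shown because the members of each pair were found in different cells, while capitals mark stretches of at least 20 bases that C1ra and C1rb share (GRCm38.p6, each 5′ to 3′ on the strand of its gene).
C1ra, chr6:124512371-124512670, plus strand: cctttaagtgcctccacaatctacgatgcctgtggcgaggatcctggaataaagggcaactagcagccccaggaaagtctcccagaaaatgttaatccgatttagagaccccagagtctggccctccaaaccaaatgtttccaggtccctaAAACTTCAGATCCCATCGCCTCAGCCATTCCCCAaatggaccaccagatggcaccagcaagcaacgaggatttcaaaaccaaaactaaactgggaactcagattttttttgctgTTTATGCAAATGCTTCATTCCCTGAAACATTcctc
C1rb, chr6:124570180-124570479, plus strand: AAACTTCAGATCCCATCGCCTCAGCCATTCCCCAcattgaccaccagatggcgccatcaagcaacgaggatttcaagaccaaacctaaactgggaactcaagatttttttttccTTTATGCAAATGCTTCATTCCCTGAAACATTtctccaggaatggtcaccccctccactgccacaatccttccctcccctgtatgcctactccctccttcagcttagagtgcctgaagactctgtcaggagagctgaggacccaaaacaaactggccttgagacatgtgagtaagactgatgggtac
C1s1, chr6:124542310-124542609, minus strand: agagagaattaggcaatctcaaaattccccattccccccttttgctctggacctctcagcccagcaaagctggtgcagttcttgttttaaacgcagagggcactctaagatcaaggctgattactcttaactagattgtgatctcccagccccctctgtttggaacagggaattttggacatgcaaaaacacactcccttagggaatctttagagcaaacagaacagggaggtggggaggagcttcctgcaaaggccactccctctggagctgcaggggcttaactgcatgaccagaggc
C1s2, chr6:124636036-124636335, minus strand: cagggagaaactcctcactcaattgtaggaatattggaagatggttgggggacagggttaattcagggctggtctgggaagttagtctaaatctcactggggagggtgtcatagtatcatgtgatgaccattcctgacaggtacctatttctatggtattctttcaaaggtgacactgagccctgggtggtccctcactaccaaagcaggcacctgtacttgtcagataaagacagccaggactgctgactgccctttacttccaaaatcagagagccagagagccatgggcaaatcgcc
The shared stretches covered 65 bases of each C1r window, the longest being 34 bases. Those stretches lie further upstream in the C1rb window than in the C1ra window, so the windows place them at different distances from the RefSeq starts. The C1s1 and C1s2 windows shared no run longer than 8 bases. Motifs were searched on both strands as exact letters. TTCNNNGAA, the form bound by STAT factors, was in the C1ra, C1rb and C7 windows once each and in 8.33% of 32544 promoter windows; in C1ra and C1rb it lies inside the second shared stretch. AGAACA, one arm of the site of the androgen and glucocorticoid receptors, was in the C1s1 window and in 18.9% of windows. TATAAA was in the C3 and C7 windows and in 13.6% of all windows, and CCAAT was in the C1s2 window and in 37.4%. These matches describe letters in a window and not bound sites.

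The paralogs also resemble each other in their transcripts, which limits how surely reads were divided between them. Of the 50-base words of the longest C1ra transcript, 48.0% also occur in C1rb transcripts, and 19.1% do so over the last 500 bases. The same shares are 59.2% and 43.2% for C1rb words in C1ra, 24.3% and 17.96% for C1s1 words in C1s2, and 35.2% and 38.1% for C4b words in C4a. How reads that fit both genes were treated was not given in the sources used here.

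The knockout, heterozygote 1 and heterozygote 2 libraries held 129015041, 47601747 and 100801564 unique molecular identifiers (UMIs, 1 per captured transcript molecule) in 13273, 5000 and 13866 barcodes. After filters 9109, 4505 and 9416 cells were left, with medians of 4366, 6962 and 4861 UMIs per cell. Heterozygote 1 stands apart in having no barcode under 2466 UMIs, against lowest totals of 586 in the knockout and 500 in heterozygote 2. Pairs of libraries shared 15 to 57 barcodes, and no barcode occurred in all 3. Clusters were made without the complement genes and named from marker lists, so the complement genes did not shape them. Srd5a2 itself had 1 UMI in knockout fibroblasts, against 29 in heterozygote 1 and 40 in heterozygote 2, so the library labelled knockout had the lowest count. Levels are in CPM, in which UMIs are scaled to a common total over the cells summed, with exact Poisson 95% intervals that cover counting error only. Differences are log2 CPM of the knockout minus a heterozygote, with a prior count of 2. The same prior was added in each library whatever its total. At low counts it therefore raises most the level of the library with the smallest total.

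The levels of the C1r and C1s pairs divided between epithelium and stroma. C1rb and C1s2 were at high levels in clusters 2 and 3, and C1ra and C1s1 had their highest levels in fibroblasts in every library. The luminal clusters with the highest levels were cluster 3 (led by Gm32122, Srpx, C1s2 and Pnliprp1), named luminal secretory on Pbsn, Hoxb13, Tgm4 and Dpp4, and cluster 2 (led by Banf2 and Ren1). Cluster 2 is left unnamed because Pecam1, an endothelial marker, is among its top 10 genes, although 5 of 12 luminal secretory markers were detected in it. Its luminal secretory list summed to 37683 CPM in the knockout, 42069 CPM in heterozygote 1 and 50759 CPM in heterozygote 2, close to 34038, 38645 and 44720 CPM in cluster 3.

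**Figure D1:**
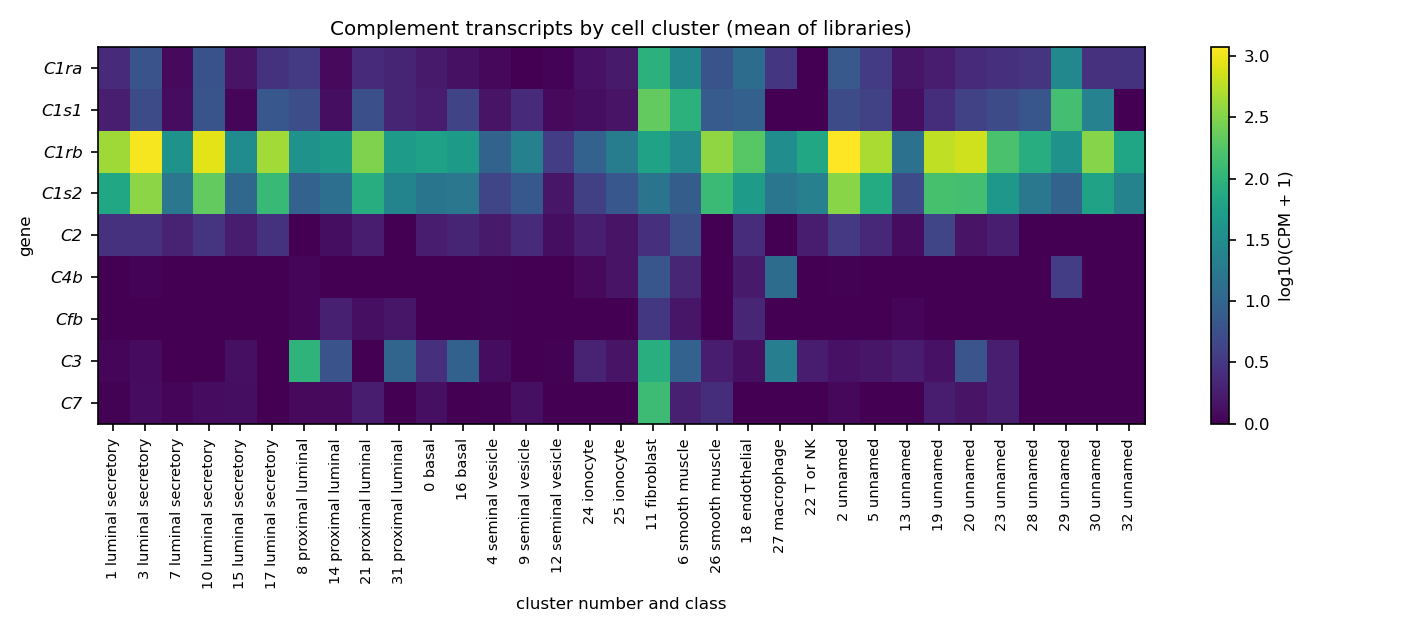
Levels of the 9 complement genes (rows) in clusters with their class names (columns), as log10 of mean CPM plus 1 over libraries. C1rb and C1s2 are brightest in luminal clusters such as 2, 3 and 10, C1ra and C1s1 in fibroblasts, smooth muscle and cluster 29, C7 in fibroblasts, and C3 in cluster 8, fibroblasts and macrophages.

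C1rb encodes a C1r protease. In cluster 2 it measured 1009 CPM in the knockout (985 to 1034), 1288 CPM in heterozygote 1 (1260 to 1317) and 1264 CPM in heterozygote 2 (1238 to 1290). The knockout was the lowest library and the heterozygotes had overlapping counting intervals, with differences of -0.35 and -0.32. Cluster 3 gave 874 CPM in the knockout, 1189 CPM in heterozygote 1 and 1146 CPM in heterozygote 2, differences of -0.44 and -0.39. The knockout was lowest in both clusters. Cluster 1 (led by Gpx3, Nlrp10, Tcaf3 and Ms4a5, named luminal secretory) gave 280 CPM in the knockout, 495 CPM in heterozygote 1 and 538 CPM in heterozygote 2. Here the knockout lay 0.82 and 0.94 below the heterozygotes on the log2 scale. Luminal cells were not alike in this gene: cluster 15, which carries the luminal secretory marker Msmb, held 19.8 CPM in the knockout, 23.3 CPM in heterozygote 1 and 49.0 CPM in heterozygote 2. With each cell thinned to 1000 UMIs, a C1rb UMI was found in 60.2% of knockout cells of cluster 2 (259 of 430), 69.1% of heterozygote 1 cells and 68.4% of heterozygote 2 cells. Median depths there were 13261.5, 9779 and 10518.5 UMIs per cell. In basal cluster 0, with medians of 3832, 3192 and 2554 UMIs, the thinned shares were 3.02%, 4.04% and 9.42% in the same order of libraries, and without thinning they were 9.28%, 9.54% and 19.2%.

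C1s2 encodes a C1s protease. Its level in cluster 2 was 220 CPM in the knockout (209 to 232), 361 CPM in heterozygote 1 (346 to 377) and 442 CPM in heterozygote 2 (426 to 457). None of these intervals overlap, and the 2 heterozygotes differed from each other too. Cluster 3 held 226 CPM in the knockout, 366 CPM in heterozygote 1 and 444 CPM in heterozygote 2. Cluster 1 held 30.8 CPM in the knockout, 77.5 CPM in heterozygote 1 and 96.1 CPM in heterozygote 2. Barcodes under 500 genes held C1s2 at 42.3 CPM in the knockout and 86.9 CPM in heterozygote 2. Cluster 1 was thus below that level in the knockout and near it in heterozygote 2. The knockout was lowest in all 3 clusters, by 0.71 and 1.00 in cluster 2, 0.70 and 0.97 in cluster 3, and 1.32 and 1.62 in cluster 1 against heterozygotes 1 and 2. Seminal vesicle transcripts moved with these differences: their list summed to 21058 CPM in the knockout, 2715 CPM in heterozygote 1 and 4723 CPM in heterozygote 2 in cluster 2, and to 16393, 2045 and 4250 CPM in cluster 3. With totals that leave out genes common in barcodes of few genes, the knockout was still lower than the heterozygote mean in clusters 2 and 3, at -0.31 and -0.39 for C1rb and -0.83 and -0.81 for C1s2. Summed over the luminal secretory class, which leaves out cluster 2, the knockout lay between the heterozygotes for both genes. C1rb measured 465 CPM there in the knockout, 425 CPM in heterozygote 1 and 608 CPM in heterozygote 2. C1s2 measured 102, 98.9 and 197 CPM in the same order.

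**Figure D2:**
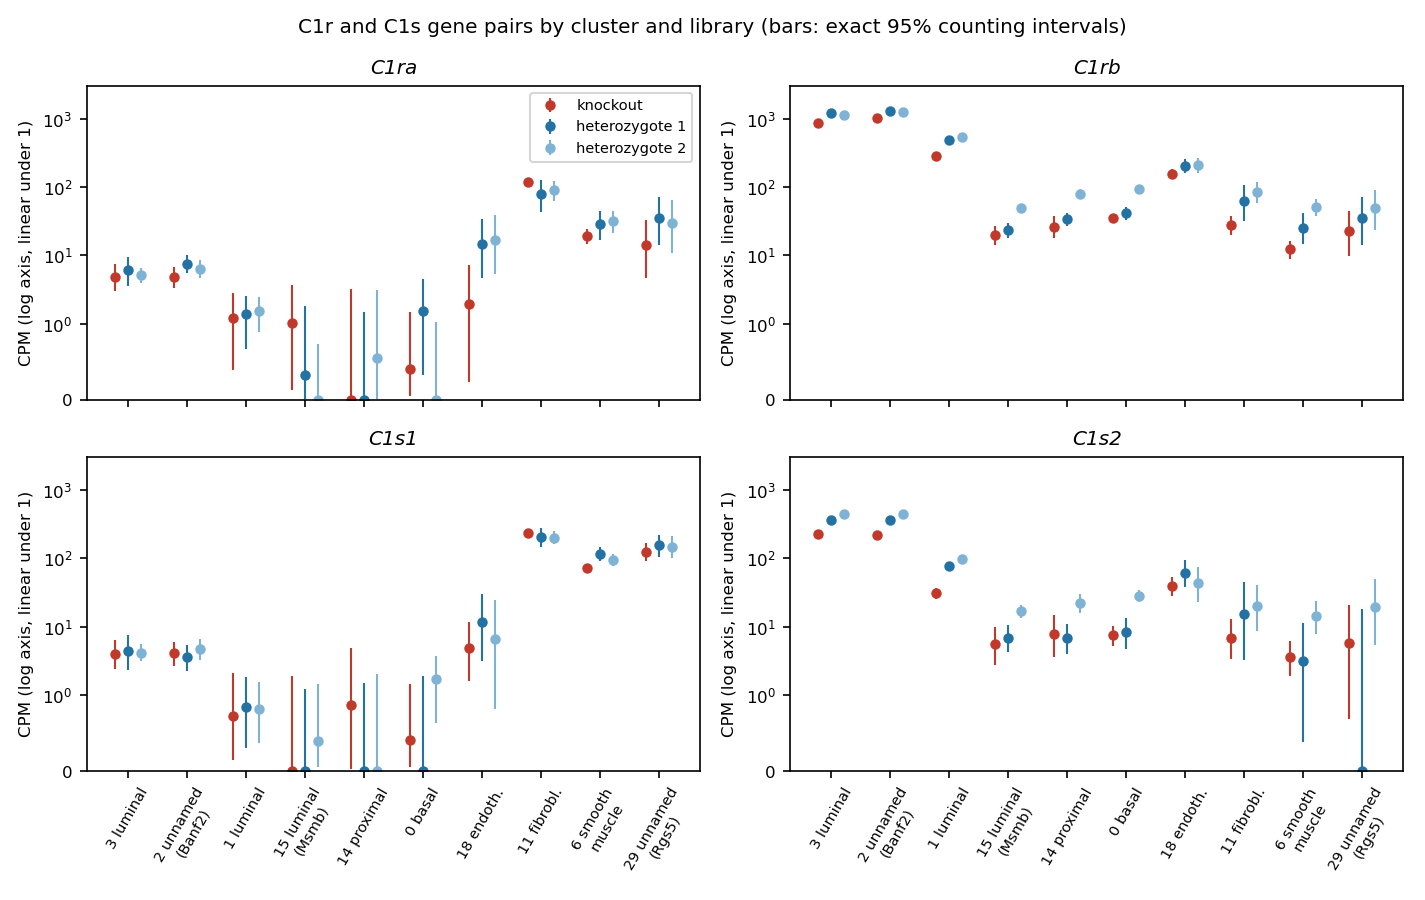
CPM of C1ra, C1rb, C1s1 and C1s2 (panels) in 10 clusters (horizontal axis) for each library (colors); the vertical axis is logarithmic above 1 CPM, and bars are exact 95% counting intervals. C1rb and C1s2 peak in clusters 2 and 3, at 1009 and 220 CPM in the knockout in cluster 2, while C1ra and C1s1 peak in fibroblasts, at 117 and 236 CPM in the knockout.

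The mix of the pair differed as well. C1s2 made up 17.9% of C1s2 and C1rb UMIs in cluster 2 in the knockout (exact Clopper-Pearson 95% interval 17.1 to 18.8), 21.9% in heterozygote 1 (21.1 to 22.7) and 25.9% in heterozygote 2 (25.1 to 26.7). In cluster 3 the share was 20.5% in the knockout, 23.6% in heterozygote 1 and 27.9% in heterozygote 2. In cluster 1 it was 9.88% in the knockout, 13.5% in heterozygote 1 and 15.2% in heterozygote 2. The knockout was lowest each time, and the gap between the heterozygotes was of like size to the gap between the knockout and heterozygote 1 in clusters 2 and 3. The share does not depend on how totals are scaled, and it differed between clusters as much as between libraries. In barcodes under 500 genes it was 18.1% in the knockout (94 C1s2 and 425 C1rb UMIs) and 26.9% in heterozygote 2, near the values of the cells of each library.

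**Figure D3:**
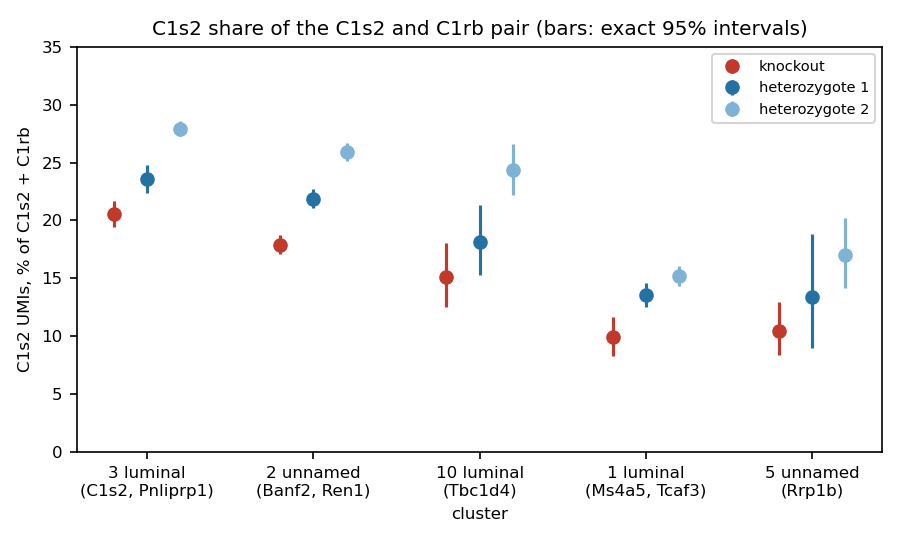
C1s2 UMIs as a percentage of C1s2 plus C1rb UMIs in 5 clusters (horizontal axis) for each library (colors), with exact 95% intervals. In each cluster the knockout point is lowest and the heterozygote 2 point highest, for example 17.9%, 21.9% and 25.9% in cluster 2.

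Low C1rb counts occurred in every class, and part of them cannot be assigned to the cells that carried them. Barcodes under 500 genes held C1rb at 191 CPM in the knockout and 236 CPM in heterozygote 2, above the 27.7 and 83.9 CPM of fibroblasts in those libraries. Heterozygote 1 held only 2 such barcodes. C1rb and C1s2 levels at or below those of such barcodes are not read as expression.

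C1ra encodes the other C1r protease and was highest in fibroblasts (cluster 11, led by Cygb, Fbln1, Pdgfra and Mmp2, with 6 of 8 fibroblast markers). It measured 117 CPM in the knockout (169 UMIs, 100 to 136), 77.7 CPM in heterozygote 1 (15 UMIs, 43.5 to 128) and 88.9 CPM in heterozygote 2 (35 UMIs, 61.9 to 124). The knockout was highest here, by 0.43 and 0.34, with counting intervals that overlap those of both heterozygotes. Among cells of at least 2466 UMIs the differences were 0.48 against heterozygote 1 and -0.37 against heterozygote 2, so the order did not hold. In smooth muscle (cluster 6, with 7 of 7 markers) C1ra measured 19.1 CPM in the knockout, 28.6 CPM in heterozygote 1 and 31.6 CPM in heterozygote 2, differences of -0.69 and -0.77. Over the whole smooth muscle class, which adds cluster 26, the values were 19.1, 26.6 and 16.4 CPM, and the knockout lay between the heterozygotes. Other lists moved in cluster 6: the fibroblast list summed to 2100 CPM in the knockout, 3967 CPM in heterozygote 1 and 3176 CPM in heterozygote 2, the seminal vesicle list to 31181, 3172 and 7823 CPM, and the luminal secretory list to 1574, 2903 and 7580 CPM. Their part in the C1ra and C1s1 differences there was not tested. The luminal clusters 2 and 3 held 4.86 and 4.88 CPM in the knockout, 7.57 and 6.08 CPM in heterozygote 1, and 6.41 and 5.17 CPM in heterozygote 2. Those luminal C1ra UMIs amounted to 0.449% to 0.584% of C1ra and C1rb together, a level at which shared reads between the paralogs were not told apart. Low as that level was, these cells were many: luminal secretory cells and cluster 2 held 9.94% and 9.36% of all C1ra UMIs in the knockout, 24.6% and 34.3% in heterozygote 1, and 36.8% and 18.6% in heterozygote 2. Fibroblasts held 49.4% in the knockout, 11.2% in heterozygote 1 and 14.2% in heterozygote 2.

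C1s1, the other C1s gene, followed C1ra. Fibroblasts held 236 CPM in the knockout (211 to 262), 202 CPM in heterozygote 1 (144 to 276) and 201 CPM in heterozygote 2 (159 to 250). The 3 values differ by less than their counting intervals. Smooth muscle held 71.6 CPM in the knockout (63.2 to 80.9), 116 CPM in heterozygote 1 (91.0 to 146) and 94.9 CPM in heterozygote 2 (76.6 to 116), so the knockout was lower by 0.72 and 0.42. With cluster 26 added the values were 71.6, 108 and 44.0 CPM, and the knockout lay between the heterozygotes. Cluster 29 is unnamed because Rgs5, a pericyte marker, is among its top genes, although 6 of 7 smooth muscle markers were detected. It held 125 CPM in the knockout, 154 CPM in heterozygote 1 and 148 CPM in heterozygote 2. C1s1 UMIs were spread over contractile, matrix-forming and luminal cells. Fibroblasts held 44.4%, 19.6% and 20.1% of all C1s1 UMIs in the knockout, heterozygote 1 and heterozygote 2, and cluster 6 held 34.2%, 36.7% and 23.7%. Luminal secretory cells held 2.75%, 11.1% and 23.7% in the same order, and cluster 2 held 3.53%, 11.1% and 8.65%. Of C1s1 and C1s2 UMIs in fibroblasts, C1s1 made up 97.1% in the knockout, 92.9% in heterozygote 1 and 90.8% in heterozygote 2, against 1.83%, 0.992% and 1.06% in cluster 2. After thinning, a C1s1 UMI was held by 103 of 522 knockout fibroblasts, 12 of 60 in heterozygote 1 and 33 of 194 in heterozygote 2, with 0.183%, 0% and 0.255% in basal cluster 0.

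C2 and C4b form the convertase of the classical and lectin pathways, and both were sparse. C2, the protease subunit, had 81 UMIs in all knockout cells, 57 in heterozygote 1 and 101 in heterozygote 2. It was spread thinly, at 1.97, 3.29 and 1.53 CPM in cluster 2 and at 2.19, 7.95 and 3.06 CPM in smooth muscle in the knockout, heterozygote 1 and heterozygote 2. No cell class stood out for C2. C4b, one of the mouse C4 genes, had 20, 5 and 14 UMIs in the same libraries. In fibroblasts there were 6 C4b UMIs in the knockout, 0 in heterozygote 1 and 5 in heterozygote 2, and in macrophages (cluster 27) 0, 1 and 6. The few glial cells (31, 2 and 16) held 4, 1 and 1 C4b UMIs in the same order. At 63.8, 54.8 and 43.6 CPM, that was the highest class level in each library. Counts this small leave the levels of C2 and C4b by cell class uncertain, and their differences between libraries were not tested.

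Cfb encodes factor B, the protease of the alternative pathway. It had 8 UMIs in knockout cells, 2 in heterozygote 1 and 5 in heterozygote 2, too few to place it in a cell type.

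C3, the central protein of all pathways, had a pair of main sources. The first was cluster 8, led by Tmem171, Frmpd4, Egfl6 and Clca3a2. It carries the name proximal luminal on 3 of 8 markers, while cluster 14 has 8 of 8. Its basal list summed to 3898 CPM in the knockout, 2690 CPM in heterozygote 1 and 2413 CPM in heterozygote 2, more than its proximal luminal list at 962, 2220 and 1786 CPM. Those sums go against the name, so it is called cluster 8 here. C3 in cluster 8 measured 58.2 CPM in the knockout (187 UMIs, 50.2 to 67.2), 125 CPM in heterozygote 1 (53 UMIs, 93.8 to 164) and 110 CPM in heterozygote 2 (63 UMIs, 84.4 to 141). The knockout interval lies below both heterozygote intervals, with differences of -1.14 and -0.95. Seminal vesicle transcripts in cluster 8 summed to 87372 CPM in the knockout, 40245 CPM in heterozygote 1 and 29703 CPM in heterozygote 2, while the proximal luminal sums above were lower and the basal sums higher in the knockout. The part of these lists in the C3 difference was not tested. With totals that leave out genes common in barcodes of few genes, C3 in cluster 8 was still 0.93 lower on the log2 scale than the heterozygote mean. Subtraction of RNA of such barcodes could not be done for cluster 8, because too much of heterozygote 1 was estimated as such RNA. In cluster 14 the order turned: C3 measured 11.4 CPM in the knockout (13 UMIs in 4 cells), 2.00 CPM in heterozygote 1 (5 UMIs) and 2.22 CPM in heterozygote 2 (4 UMIs). Summed over the proximal luminal class, C3 was highest in the knockout, at 45.3 CPM against 17.4 and 13.7 CPM in heterozygotes 1 and 2. Over all cells it measured 3.29, 2.06 and 2.22 CPM in the same order. Cluster 8 made up 6.59% of knockout cells, 2.26% of heterozygote 1 cells and 1.62% of heterozygote 2 cells.

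The other source of C3 was the fibroblasts, at 59.7 CPM in the knockout (86 UMIs in 25 cells), 93.3 CPM in heterozygote 1 (18 UMIs in 8 cells) and 102 CPM in heterozygote 2 (40 UMIs in 14 cells). Of these UMIs, 61.8% came from 10 cells. The interval of the knockout (47.7 to 73.7) overlaps those of heterozygote 1 (55.3 to 147) and, narrowly, heterozygote 2 (72.6 to 138). As ratios, the knockout level was 0.640 of heterozygote 1 (95% counting interval 0.382 to 1.13) and 0.587 of heterozygote 2 (0.399 to 0.877). Only the interval against heterozygote 2 lies below 1, and it covers counting error alone. Macrophages held 13 C3 UMIs in the knockout, 1 in heterozygote 1 and 6 in heterozygote 2. Luminal clusters 2 and 3 held at most 0.607 CPM in any library.

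C7 joins C5b and C6 in the nascent membrane attack complex, and of the 9 genes it had the largest share of its UMIs in 1 cluster. Fibroblasts held 78.6% of its UMIs in the knockout, 81.1% in heterozygote 1 and 72.5% in heterozygote 2, while making up 5.81%, 1.33% and 2.17% of cells. Its level there was 15.3 CPM in the knockout (22 UMIs, 9.56 to 23.1), 223 CPM in heterozygote 1 (43 UMIs, 161 to 300) and 147 CPM in heterozygote 2 (58 UMIs, 112 to 191). The knockout lay far below both heterozygotes, by 3.81 and 3.20 on the log2 scale. As ratios, the knockout level was 0.0685 of heterozygote 1 (95% counting interval 0.0390 to 0.117) and 0.104 of heterozygote 2 (0.0603 to 0.172). C7 UMIs came from 17 of 529 knockout fibroblasts, 6 of 60 in heterozygote 1 and 21 of 204 in heterozygote 2. They were concentrated, 65.9% of them coming from 10 cells. After thinning to 1000 UMIs, 1.53% of knockout fibroblasts (8 of 522, 0.664 to 3.00), 10.0% of heterozygote 1 fibroblasts (6 of 60, 3.76 to 20.5) and 5.67% of heterozygote 2 fibroblasts (11 of 194, 2.86 to 9.92) held a C7 UMI. Unthinned, 3.21%, 10.0% and 10.3% of these cells held one, and their median depth was 2695 UMIs in the knockout, 3044.5 in heterozygote 1 and 1827 in heterozygote 2. Basal cells, as a background, held a C7 UMI in 0.0803%, 0% and 0% after thinning.

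At a finer clustering the fibroblasts split into a group led by Dpt, Fbln1, Lum and Mfap4 (118 knockout cells, 9 in heterozygote 1 and 52 in heterozygote 2) and a group led by Cygb, Mmp2, Penk, Rorb and Wnt2 (410, 51 and 152 cells). C7, C3 and C4b lay mostly in the first, and Srd5a2 in the second, except that in heterozygote 1 the second group held 17 C3 UMIs and the first 1. In the Dpt and Lum group C7 measured 61.2 CPM in the knockout (18 UMIs in 13 cells), 846 CPM in heterozygote 1 (26 UMIs in 4 cells) and 581 CPM in heterozygote 2 (56 UMIs in 19 cells). The Srd5a2 group held 4 C7 UMIs in the knockout, 17 in heterozygote 1 (all in 2 cells) and 2 in heterozygote 2, differences of -4.48 and -1.36. Without the prior these were 3.50 CPM in the knockout (0.952 to 8.95), 105 CPM in heterozygote 1 and 6.73 CPM in heterozygote 2 (0.815 to 24.3). The intervals of the knockout and heterozygote 2 overlap, so the knockout is not told apart from heterozygote 2 in that group. The lower C7 of the knockout was therefore also found within the group that carries most C7. C3 in the Dpt and Lum group measured 275 CPM in the knockout, 32.5 CPM in heterozygote 1 (1 UMI) and 404 CPM in heterozygote 2, so it did not separate the genotypes. The 6, 0 and 4 C4b UMIs of this group were most of those of fibroblasts.

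**Figure D4:**
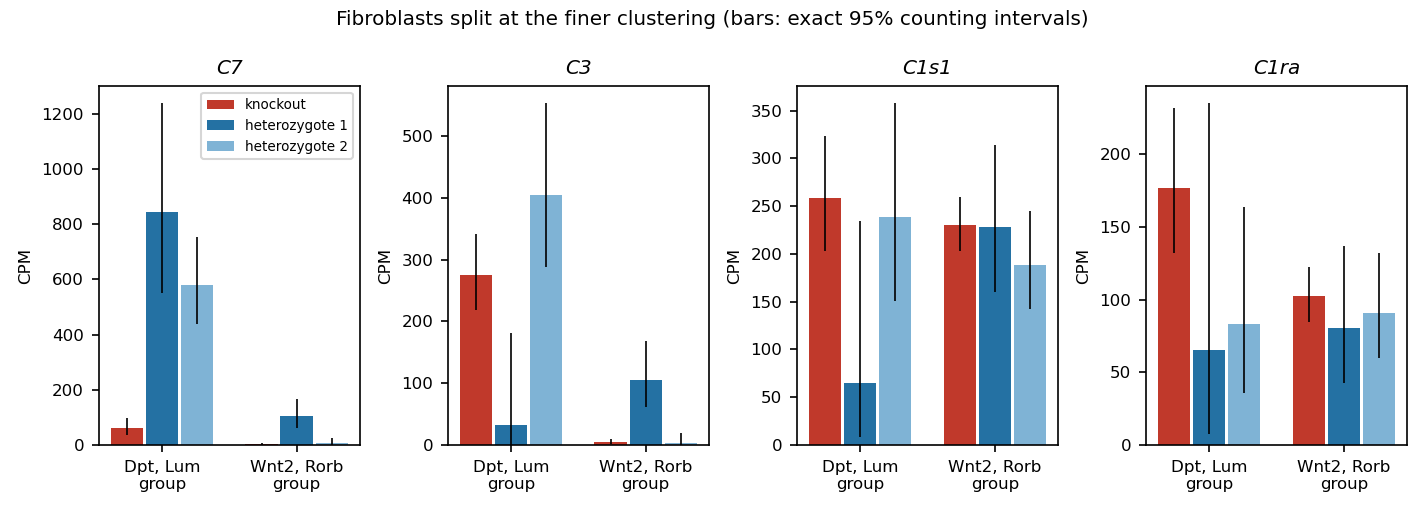
CPM of C7, C3, C1s1 and C1ra (panels) in the fibroblast groups of the finer clustering for each library (colored bars), with exact 95% counting intervals. C7 in the Dpt and Lum group stands at 61.2 CPM in the knockout, against 846 and 581 CPM in the heterozygotes, while C1s1 and C1ra are seen in both groups.

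Other transcripts moved with C7. In the same fibroblasts the seminal vesicle list summed to 58228 CPM in the knockout, 17091 CPM in heterozygote 1 and 11569 CPM in heterozygote 2, with Svs5 the largest in each library and none of its 7 markers at 0 in any library. The luminal secretory list summed to 2872, 12807 and 16458 CPM, with Sbpl at 0 in the knockout and heterozygote 1. The fibroblast list summed to 12317, 9776 and 10614 CPM and the macrophage list to 22.2, 5.18 and 22.9 CPM in the knockout, heterozygote 1 and heterozygote 2. The basal list summed to 49.9, 554 and 173 CPM, and the B cell list to 1.39, 0 and 3786 CPM, so it stands apart in heterozygote 2. With totals that leave out genes common in barcodes of few genes, C7 fell by 3.43 in the knockout relative to the heterozygote mean, against -3.50 with plain totals. The part of these lists in the C7 difference was not tested.

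Of the 9 genes in all clusters, 44 pairs of a gene and a cluster had at least 10 UMIs in every library. The knockout was below both heterozygotes in 37 of them, above both in 2 and between them in 5. Over all genes under the same rule in the same 22 clusters, the knockout was below both in 42.3% of pairs and above both in 27.9%. The 44 pairs are not independent: 21 are C1rb and 10 are C1s2, many at levels no higher than in barcodes of few genes, and all share the same 3 libraries. C1rb was below both in 18 of its 21 pairs and C1s2 in 10 of 10. C1ra was below both in 3 of 4 and C1s1 in 3 of 5, each with its 1 pair above both in fibroblasts. C3 was below both in 2 of 2 pairs and C7 in its 1, while the 1 pair of C2 lay between. C3 in cluster 14, where the knockout was highest, had too few UMIs to be counted. The plot of differences shows 13 of the 44, picked by hand after their values were seen, so their count carries no weight. Over all genes with at least 50 UMIs, the knockout was below both heterozygotes for 41.7% of genes in cluster 1, 46% in cluster 2, 44.9% in cluster 3, 42.5% in cluster 6, 47.3% in cluster 8 and 37.9% in cluster 11, and above both for 26.9% in cluster 11. The median difference from the heterozygote mean over those genes was -0.06 in cluster 1, -0.10 in cluster 2, -0.09 in clusters 3 and 6, -0.15 in cluster 8 and -0.07 in cluster 11. Those medians used a prior count scaled to the total of each library, unlike the differences of the complement genes. Set beside those medians, the differences from the heterozygote mean were -0.34 for C1rb in cluster 2 and -0.42 in cluster 3, -1.47 for C1s2 in cluster 1 and -3.50 for C7 in fibroblasts. In the knockout, C1s2 in cluster 1 was below its level in barcodes of few genes.

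**Figure D5:**
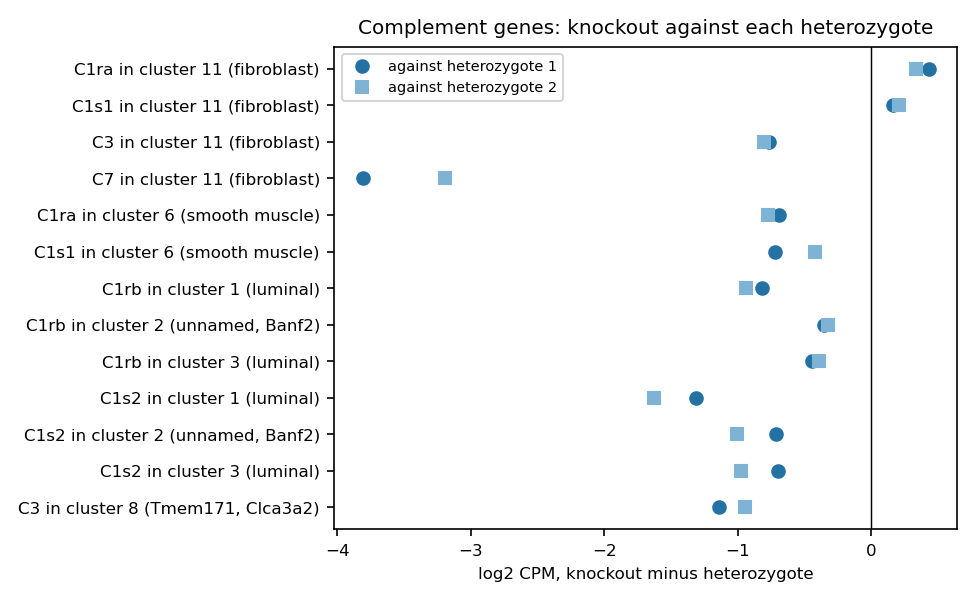
Differences in log2 CPM, knockout minus heterozygote 1 (circles) and minus heterozygote 2 (squares), for 13 pairs of a gene and a cluster (rows), picked by hand from 44 after their values were seen. The pairs shown lie left of 0 except C1ra and C1s1 in fibroblasts, and C7 in fibroblasts lies furthest left, at -3.81 and -3.20.

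For 46 other complement genes, the highest gene of each list is given in macrophages, fibroblasts and luminal secretory cells. In macrophages C1qa, a chain of the C1q recognition protein, measured 3279 CPM in the knockout, 2683 CPM in heterozygote 1 and 2520 CPM in heterozygote 2. Macrophages were too few for a fit (114, 31 and 87 cells). C5ar1, the receptor of C5a, measured 367, 244 and 411 CPM there in the same order, and C6 had no UMI. In fibroblasts Serping1, the C1 inhibitor that blocks C1r and C1s, measured 1394 CPM in the knockout, 943 CPM in heterozygote 1 and 1238 CPM in heterozygote 2. Also in fibroblasts, Csmd1, a membrane regulator of complement, measured 235, 368 and 353 CPM, and Colec12, a collectin scavenger receptor, 248, 254 and 229 CPM. In luminal secretory cells clusterin (Clu), an inhibitor of the terminal complex, measured 490 CPM in the knockout, 416 CPM in heterozygote 1 and 256 CPM in heterozygote 2, and Cr1l, a membrane regulator, 81.2, 76.5 and 76.9 CPM. The partners of C7 were scarce: C6 was the highest other terminal gene in fibroblasts, with 1 UMI in the knockout, 1 in heterozygote 1 and 0 in heterozygote 2, and C8g that in luminal secretory cells, at 2.50, 3.51 and 2.96 CPM. The highest genes of the remaining lists were C4a (2, 0 and 1 UMIs) and Cr2 (1, 1 and 1 UMIs) in fibroblasts, Masp1 (6.44, 8.28 and 10.4 CPM), Cfp (1.69, 1.43 and 1.91 CPM) and C3ar1 (0.564, 0.329 and 0.537 CPM) in luminal secretory cells, and Cfp (12.2, 54.2 and 48.4 CPM), Clu (214, 81.3 and 117 CPM) and Cr1l (89.7, 72.3 and 60.5 CPM) in macrophages.

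These 46 genes were tested with edgeR's quasi-likelihood test, Benjamini-Hochberg adjusted over all genes tested in a class, at a threshold of 0.05. The fit had 1 residual degree of freedom: its error comes from the heterozygotes alone, mostly pooled over genes, and the single knockout is taken to have the same spread. In fibroblasts 10 were tested, of which Masp1 rose and Vtn fell, where 1.64% of all genes were called. Both calls were lost with doublets kept (adjusted p = 0.513 for each) and with RNA of barcodes of few genes subtracted (adjusted p = 0.141 for Masp1 and 0.0941 for Vtn). With DESeq2 Masp1 was not called (adjusted p = 0.999) and Vtn had no adjusted p. Masp1, a protease of the lectin pathway, had 175 UMIs and 121 CPM in the knockout, 16 UMIs and 82.9 CPM in heterozygote 1, and 10 UMIs and 25.4 CPM in heterozygote 2. Its log2 fold change was 1.52 ± 0.40 (SE, adjusted p = 0.0141), while the difference was 0.40 against heterozygote 1 and 2.01 against heterozygote 2. Vtn, vitronectin, which holds back the terminal complex, had 4 UMIs in the knockout, 6 in heterozygote 1 and 18 in heterozygote 2 (2.77, 31.1 and 45.7 CPM). Its log2 fold change was -3.61 ± 1.03 (SE, adjusted p = 0.0343), and 82.1% of its UMIs came from 10 cells. The median log2 fold change was 0.31 over the 10 genes and -0.03 over all 7071 genes tested in fibroblasts.

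In luminal secretory cells 22 were tested and 1 fell, where 1.74% of all genes were called. It was Cd59a, which blocks the membrane attack complex on the cell surface, at 0.403 CPM in the knockout (5 UMIs), 2.58 CPM in heterozygote 1 (47 UMIs) and 2.26 CPM in heterozygote 2 (84 UMIs). Its log2 fold change was -2.53 ± 0.71 (SE, adjusted p = 0.0249), and the call was lost with DESeq2 (adjusted p = 0.509) and with RNA of barcodes of few genes subtracted (adjusted p = 0.0546). The median over the 22 genes was -0.05, against -0.02 over all genes. Of the cells of this class, clusters 3, 1 and 10 held 277, 220 and 151 in the knockout, 263, 654 and 94 in heterozygote 1, and 899, 850 and 558 in heterozygote 2.

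In seminal vesicle cells 9 were tested, of which 2 fell and 1 rose, where 14.1% of all genes were called. Cd59a fell by 1.74 ± 0.41 on the log2 scale (SE, adjusted p = 3.64e-04), with 0.843 CPM in the knockout, 4.03 CPM in heterozygote 1 and 6.72 CPM in heterozygote 2. Cr2, a complement receptor, fell by 1.81 ± 0.34 (SE, adjusted p = 2.43e-06), with 1.53, 6.72 and 13.7 CPM. Cd55, which speeds the decay of convertases, was called higher at 0.83 ± 0.29 (SE, adjusted p = 0.0379), but its plain level was 6.95 CPM in the knockout, 7.89 CPM in heterozygote 1 and 7.46 CPM in heterozygote 2, so its direction depends on TMM scaling. With DESeq2 the calls of Cd59a (adjusted p = 0.177) and Cd55 (adjusted p = 0.536) were lost and that of Cr2 held (adjusted p = 0.0427). The median over the 9 genes was 0.22, against -0.01 over all genes. Clusters 9 and 12 held 807 and 748 knockout cells of this class, against 1 and 8 in heterozygote 1 and 1 and 0 in heterozygote 2.

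None was called in basal (9 tested), endothelial (8), ionocyte (7), proximal luminal (15) or smooth muscle cells (11), where edgeR called 1.59%, 1.33%, 1.05%, 1.47% and 0.195% of all genes. At an unadjusted p under 0.05 edgeR counted 1, 0, 1, 2 and 3 of them, and DESeq2 called none in these classes. Medians were -0.09, -0.05, 0.26, -0.86 and -0.71, against -0.01, -0.01, -0.02, -0.05 and -0.04 over all genes tested. In the proximal luminal class, clusters 8, 14 and 21 held 600, 132 and 0 cells in the knockout, 102, 322 and 8 in heterozygote 1, and 153, 289 and 342 in heterozygote 2. The smooth muscle class includes cluster 26, which held 1 knockout cell, 1 heterozygote 1 cell and 231 heterozygote 2 cells.

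The genes whose level over 33 clusters was most like that of each complement gene were found among 7856 genes, as Pearson correlations of log2(CPM + 1). The clusters share libraries and depth, so these are descriptions. C1rb was closest to 9530053A07Rik (0.99), Gm37223 (0.99) and Glb1l3 (0.99), and C1s2 to Gm37223 (0.98), 9530053A07Rik (0.97) and Fgl1 (0.97). C1ra was closest to Col5a2 (0.89), Grm7 (0.88) and the collagen cross-linking enzyme Lox (0.86), and C1s1 to Emilin1 (0.91), Lox (0.91) and Fxyd1 (0.90). C7 was closest to Dnm1 (0.90), Dpt (0.88), which encodes the matrix protein dermatopontin, and Thbs4 (0.86). C3 was closest to Inmt (0.76), Wnt10a (0.76) and Srd5a2 (0.76). Srd5a2 was nearly absent from the knockout library that enters these means. In the finer fibroblast groups C3 and Srd5a2 lay mostly apart, except in heterozygote 1. The sparse genes gave Gatm, Ccl2 and Gm15726 for C4b (0.84, 0.84 and 0.83), Cyp1b1, Igfbp3 and Col13a1 for Cfb (0.87, 0.86 and 0.82) and Rab39b, Armc1 and Zcchc17 for C2 (0.59 each).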

How the data were processed

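Single cells of whole prostate from C57BL6 mice were profiled on the 10x Genomics platform, in 1 Srd5a2 knockout and 2 heterozygote libraries grouped by their genotype labels. The authors deposited unnormalized UMI counts, in whole numbers, for each barcode and gene, with gene and barcode lists beside them. Per the submitters' processing notes, Cell Ranger 3.1.0 and the build mm10 were used. Chemistry, cell calling, the pooling of animals and the assignment of reads between paralogs were not given in the sources used here. The complement genes, gene lists and tests were chosen with earlier results of these data known.

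Barcodes passed with 500 genes or more and no more than 15% of UMIs from mitochondrial genes (9983 in the knockout, 4718 and 10587 in the heterozygotes). Doublets were scored against simulated pairs, and the top-scoring share equal to 0.8% per 1000 barcodes was called, which removed 874, 213 and 1171. Cells were clustered together without batch correction (numpy 2.4.6, scipy 1.17.1) on 2000 variable genes, 30 components and 15 neighbors with Leiden at resolution 1.0 (igraph 0.11.9). Left out of the variable genes were the complement genes, mitochondrial genes and genes with 0.1% or more of the UMIs of barcodes under 500 genes. A cluster was named with at least 3 markers detected (log2 fold of at least 1.0, in 25% of cells), and left unnamed where markers of another class led it. Names are rebuilt here from markers. Smooth muscle levels are from cluster 6, since cluster 26, also named so, was almost all heterozygote 2 (231 cells, against 1 in each other library).

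UMIs were summed per library and class or cluster. CPM used plain totals. Intervals are exact Poisson for sums and Clopper-Pearson for shares, at 95%, and cover counting error only. Shares of cells were taken after thinning each cell to 1000 UMIs. Classes with at least 50 cells in each library were fitted with edgeR 4.0.16 (R 4.3.3; filterByExpr, TMM, quasi-likelihood test, Benjamini-Hochberg adjustment, threshold 0.05), after the procedure was tested on simulated data. DESeq2 1.42.0, other scalings, filters, cell filters, clusterings, subtraction of RNA found in barcodes of few genes, and leaving out each heterozygote were alternatives. For that subtraction the knockout and heterozygote 2 used their own barcodes of few genes. Heterozygote 1 had only 2 such barcodes, so the profile of heterozygote 2 was subtracted from it. Named genes are the 9, Srd5a2, other complement genes called in any class, the highest gene of each complement list in fibroblasts, luminal secretory cells and macrophages, and the 3 genes most like each of the 9 over clusters. The finer fibroblast groups (resolution 2.0) were described after seeing the data.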

Additional observations from a re-analysis of the deposited data

Results flagged for a closer look

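C1ra and C1s1 were higher in the knockout than in both heterozygotes in fibroblasts and lower than both in the clusters named next, and these differences between cell groups were not tested. C1ra stood 0.38 above the heterozygote mean on the log2 scale in fibroblasts (cluster 11), against -0.49 in cluster 2, -0.17 in cluster 3 and -0.73 in smooth muscle (cluster 6). C1s1 stood 0.18 above it in fibroblasts, against -0.57 in smooth muscle and -0.30 in cluster 29. In fibroblasts the counting intervals of the knockout overlap those of both heterozygotes for both genes. They overlap in the other clusters named here too, except that for C1s1 in smooth muscle the knockout interval lies below that of heterozygote 1. Overlap of separate intervals does not by itself show equal levels. In clusters 2 and 3 C1ra was also too low to tell it from reads shared with C1rb. C1s1 in cluster 2 lay between the heterozygotes. Summed by class, with cluster 26 in smooth muscle, the knockout lay between the heterozygotes in smooth muscle for both genes, and above both in luminal secretory cells for C1ra and in proximal luminal cells for both.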

How the results depend on the processing

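No paired analysis was possible because the labels give the libraries no shared replicate numbers. Settings were compared on 13 of the 44 gene and cluster pairs, picked by hand after their values were seen, and the other 31 were not rerun. The knockout lay below both heterozygotes in 11 of these 13 in every setting except with RNA of barcodes of few genes subtracted, where it did so in 10 of the 12 pairs that still had a value, and 1 direction turned: C1s1 in fibroblasts was -0.053, against 0.18. Leaving out a heterozygote left only the other to compare with, so the 11 pairs found each time followed from the main count. It also left edgeR no residual degree of freedom, so calls have no value there. C7 in fibroblasts ranged from -3.81 to -3.20 over those omissions. At resolution 2.0 the matched cluster is the Cygb, Rorb and Wnt2 group: C7 was -2.92 there (-4.48 and -1.36 against heterozygotes 1 and 2), C3 -2.49 against -0.78, C1ra 0.13 against 0.38 and C1s1 0.097 against 0.18. C1ra in fibroblasts was 0.052 among cells of at least 2466 UMIs and 0.15 with RNA of barcodes of few genes subtracted.

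The 6 calls among other complement genes became 1 with DESeq2 (Cr2 in seminal vesicle cells) and 2 with such RNA subtracted, when 3 classes could be fitted; neither of those 2 was among the 6. Vtn had no adjusted p with DESeq2. With doublets kept, the Masp1 and Vtn calls in fibroblasts were lost, and Vtn also with stricter cell filters. The causes were not tested. Of the genes called over all, the counts moved by over 1.5 times as follows. With DESeq2 they were 35 in basal (187 with edgeR), 13 in endothelial (78), 18 in fibroblasts (116), 19 in ionocytes (115), 95 in luminal secretory (264), 334 in proximal luminal (185) and 577 in seminal vesicle cells (1634). With doublets kept, edgeR called 0 in basal cells and 0 in fibroblasts (655 and 742 at an unadjusted p under 0.05) and 145 in smooth muscle (22). Looser cell filters gave 286 in basal, 182 in ionocytes, 476 in proximal luminal and 146 in smooth muscle. Stricter ones gave 180 in fibroblasts, 175 in ionocytes and 437 in proximal luminal. Cells of at least 2466 UMIs gave 183 in ionocytes, 287 in proximal luminal and 13 in smooth muscle. Median-ratio scaling gave 181 in ionocytes and 71 in smooth muscle. With no filter on low counts there were 1692 in proximal luminal and 7 in smooth muscle. Resolution 0.5 gave 580 in proximal luminal and 0 in smooth muscle (727 unadjusted; DESeq2 gave 17 at the main clustering). Resolution 2.0 gave 292 in basal, 9 in endothelial, 957 in proximal luminal and 228 in smooth muscle. Another seed gave 652 in proximal luminal and 52 in smooth muscle.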
